A study of Homo sapiens with 21 samples.

Results

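The 51 genes described here encode the machinery of mitosis and the regulators that start it. They were chosen by symbol, from knowledge of their function and with earlier results of these data known. They cover mitotic entry (8 genes), anaphase and mitotic exit (3), mitotic kinases (3), the chromosomal passenger complex (4), the spindle checkpoint (4), spindle-associated proteins (6), mitotic kinesins (8), the kinetochore (7), chromosome condensation (5) and cytokinesis (3). All 51 were among the 16553 genes of the deposited count table, and all 51 passed the filter on low counts that left 15969 genes for testing. RNA had been sequenced from AU565, a breast cancer line with an amplified ERBB2 gene, in cultures with or without trastuzumab, which binds HER2, the receptor that ERBB2 encodes. The 21 libraries formed 7 groups of 3. Primed and treated aggregates came from cells given 20 µg/ml trastuzumab for 24 h as a monolayer, then kept for 96 h as 3D aggregates (liquid overlay, 5% matrigel), and finally given 50 µg/ml for 24 h. Treated aggregates received only the late dose, primed aggregates only the early one, and untreated aggregates none. Primed monolayers were exposed to 20 µg/ml for 24 h and left for 96 h more, acutely exposed monolayers were collected after the 24 h of exposure, and untreated monolayers received no antibody. The labels do not say that the replicates were separate cultures, so each p-value measures only how these samples vary, and that variation may be technical.

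As background, a cell enters mitosis when cyclin B binds CDK1 and CDC25 phosphatases remove the inhibitory phosphates from that kinase. Chromosomes then condense, kinesins and spindle proteins build the spindle, kinetochores attach to it under the watch of the checkpoint, and the anaphase-promoting complex ends mitosis by marking securin and the cyclins for degradation. Transcripts of these genes rise in late S phase and G2, and FOXM1, MYBL2 and the DREAM and MuvB complexes regulate them. DREAM and MuvB bind promoters through the cell cycle genes homology region (CHR), whose usual letters are TTTGAA, often beside CCAAT boxes bound by NF-Y. In breast tumours such genes make up most proliferation signatures, and Ki-67, the product of MKI67, is the routine marker of dividing cells.

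RefSeq promoters (GRCh38.p14) were found for 44 of the 51 genes. The letters TTTGAA, on either strand in the 250 bases before a start site, occurred in 25 of these 44 genes (56.8%), against 12.5% of the 12556 genes of the count table with a promoter in the RefSeq table. In 100 other mitosis genes the share was 26.0%, and in 33 DNA replication genes it was 3.03%. CCAAT, also on either strand, occurred in 34 of the 44 (77.3%), against 41.0% of the genes of the count table. Over all 35116 promoters of the table the shares were 13.3% for TTTGAA and 32.0% for CCAAT. A match of letters is no measured site. The last 120 bases before the start site are shown for 6 genes named in the results below. TTTGAA and CCAAT are in capitals (ATTGG where the CCAAT lies on the other strand).
CCNB2, chr15:59105026-59105145, plus strand: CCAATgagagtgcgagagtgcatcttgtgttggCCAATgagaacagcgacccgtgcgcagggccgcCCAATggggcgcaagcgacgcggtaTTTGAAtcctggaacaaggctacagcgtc
PLK1, chr16:23678769-23678888, plus strand: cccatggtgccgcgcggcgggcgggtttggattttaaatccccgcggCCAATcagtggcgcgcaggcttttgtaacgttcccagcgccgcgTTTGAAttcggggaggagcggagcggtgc
CDC20, chr1:43358861-43358980, plus strand: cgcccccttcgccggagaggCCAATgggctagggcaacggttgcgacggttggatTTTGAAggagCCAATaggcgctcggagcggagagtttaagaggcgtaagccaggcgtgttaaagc
MKI67, chr10:128126424-128126543, minus strand: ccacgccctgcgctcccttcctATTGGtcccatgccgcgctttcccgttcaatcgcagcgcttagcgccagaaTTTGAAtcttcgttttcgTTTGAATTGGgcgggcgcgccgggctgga
CCNB1, chr5:69167030-69167149, plus strand: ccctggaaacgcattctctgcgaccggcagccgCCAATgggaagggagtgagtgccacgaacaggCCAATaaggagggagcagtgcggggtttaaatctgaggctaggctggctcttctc
KIF20A, chr5:138178992-138179111, plus strand: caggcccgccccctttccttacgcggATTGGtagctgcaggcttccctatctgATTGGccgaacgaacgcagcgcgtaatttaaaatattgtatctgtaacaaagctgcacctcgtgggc

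CCNB2 had 3 CCAAT boxes ahead of 1 TTTGAA that began 29 bases before the start, and PLK1 had 1 of each. In MKI67 the TTTGAA nearest the start shared 1 base with an ATTGG. In CCNB1 and KIF20A these 120 bases held no TTTGAA in this spelling but 2 CCAAT boxes each.

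The levels of these genes lay far apart in monolayers and aggregates. Together they took 0.101 to 0.116% of a library's counts in primed and treated aggregates, 0.148 to 0.155% in treated aggregates, 0.103 to 0.116% in primed aggregates and 0.0909 to 0.104% in untreated aggregates. Their share was 0.435 to 0.482% in primed monolayers, 0.328 to 0.346% in acutely exposed monolayers and 0.412 to 0.42% in untreated monolayers. The median gene stood at 22.1% of its untreated monolayer level in primed and treated aggregates, 34.5% in treated aggregates, 26.6% in primed aggregates and 25.2% in untreated aggregates. In primed monolayers it stood at 121% and in acutely exposed monolayers at 79.6%. The highest group mean was that of primed monolayers in 38 genes, of untreated monolayers in 12 and of acutely exposed monolayers in 1. The lowest was that of primed and treated aggregates in 35 genes, of untreated aggregates in 15 and of primed aggregates in 1. The order of group means was not counted over all genes.

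Whole-library facts bear on these comparisons. Library totals were 15005070 to 26921113 counts. ERBB2 (5767 to 10030 CPM, the count scaled to the library's size) and GRB7 (715 to 1470 CPM) were high in every library, as were the luminal keratins, whereas CDH1 was at most 3.05 CPM and GATA3 at most 11.8 CPM. Transcripts of other tissues divided the libraries into 2 sets. The 9 libraries of primed and treated aggregates, treated aggregates and primed monolayers held 6.69 to 39.7 CPM of 6 kidney genes and 1.64 to 3.64 CPM of 7 listed melanocyte genes. The other 12 held 0.439 to 1.19 CPM of the kidney genes and 16.6 to 109 CPM of the melanocyte genes. Where the groups compared lie in different sets, set and treatment cannot be told apart. Those within 1 set are primed and treated against treated aggregates, primed against untreated aggregates, untreated aggregates against untreated monolayers and acutely exposed against untreated monolayers. Treated aggregates, primed or not, had also spent 24 h longer as aggregates than the untreated and the primed ones. The labels give no time in culture for the untreated monolayers. Time therefore cannot be told apart from form in aggregates against monolayers, or from priming or acute exposure in monolayers. For aggregates from unprimed cells, no monolayer time is stated that matches the 24 h of early exposure. Those 24 h and priming cannot be told apart in aggregates. In bulk RNA, fewer dividing cells and less mitotic RNA per cell cannot be told apart.

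**Figure D1:**
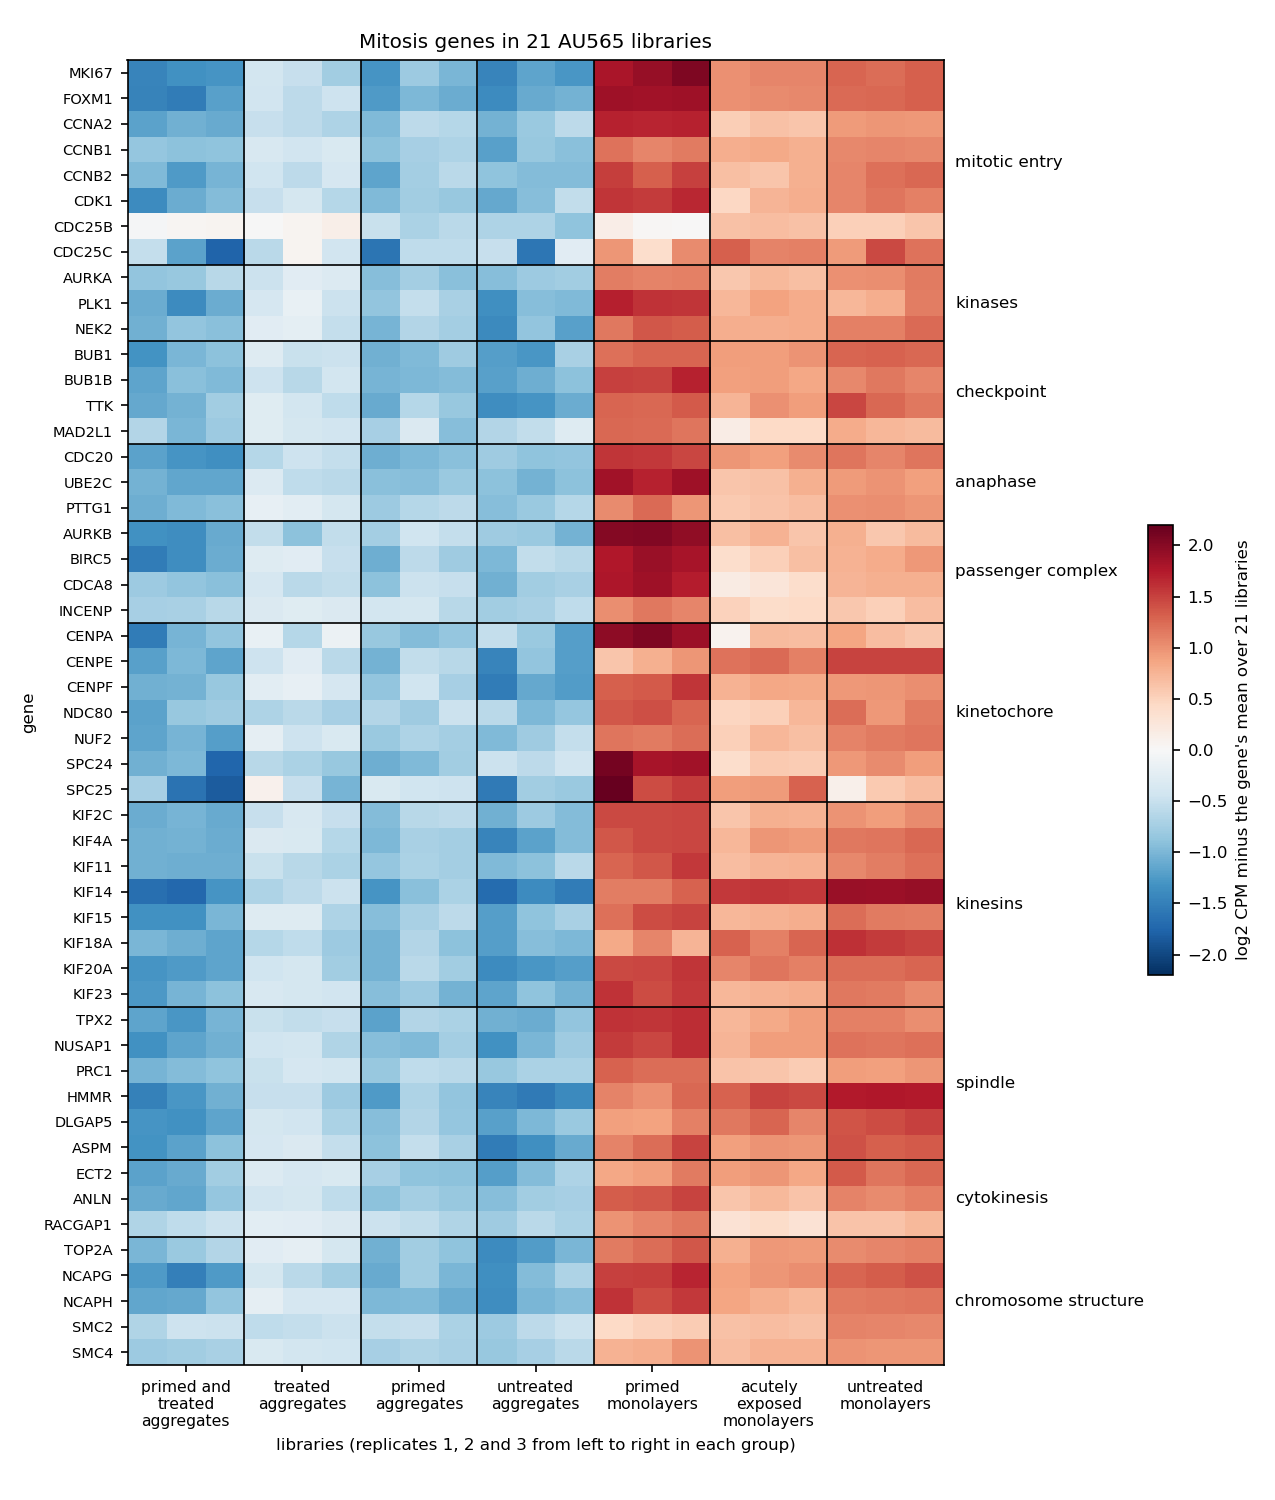
Level of each of the 51 mitosis genes (rows, by role) in each of the 21 libraries (columns, replicates 1 to 3 of the 7 groups), as log2 CPM minus the gene's mean over the libraries. Aggregates are blue (lower) and monolayers red (higher) for nearly every gene. Treated aggregates are the palest blue, with the highest mean among aggregates in 48 of the 51 genes (not counted over all genes).

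All 51 mitosis genes were lower in untreated aggregates than in untreated monolayers, with every call at an edgeR adjusted p under 0.05, beside 31.1% of all genes tested that were called lower and 32.9% called higher. The median log2 difference was −1.99 over the 51 genes, against 0.01 over all genes. MKI67, the Ki-67 gene, had 29, 35.5 and 32.7 CPM in untreated aggregates, against 194, 187 and 197 CPM in untreated monolayers (log2 −2.57, SE 0.10, edgeR adjusted p = 4.17e-15). FOXM1, a transcription factor that drives G2 genes, had 11.9, 14.3 and 15 CPM in untreated aggregates, against 74, 74.4 and 77.6 CPM in untreated monolayers (log2 −2.45, SE 0.079, edgeR adjusted p = 1.37e-23). Neither gene's groups came near to overlapping. CCNB2, the second B-type cyclin, had 8.11, 7.76 and 7.79 CPM in untreated aggregates, against 31.7, 34.7 and 35.9 CPM in untreated monolayers (log2 −2.11, SE 0.11, edgeR adjusted p = 1.98e-18). The melanocyte genes also differed between these groups, at 16.6 to 22.7 CPM in untreated aggregates and 49.3 to 109 CPM in untreated monolayers, and their part in the result was not tested.

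The size of the fall differed by gene. KIF14, a kinesin of the midzone and cytokinesis, differed most, at 4.34 ± 0.46 CPM in untreated aggregates and 46.8 ± 0.67 CPM in untreated monolayers (SD, n = 3 each; log2 −3.42, SE 0.11, edgeR adjusted p = 2.03e-23). HMMR, a spindle protein, followed at log2 −3.23, with ASPM, which focuses spindle poles, at −2.68 and the kinetochore motor CENPE at −2.63. CCNB1, the mitotic cyclin, had 19.4, 24.9 and 23.4 CPM in untreated aggregates, against 91.7, 92.5 and 91.9 CPM in untreated monolayers (log2 −2.02, SE 0.069, edgeR adjusted p = 5.01e-23). The smallest falls were those of MAD2L1, a checkpoint protein (log2 −1.23), INCENP, the passenger scaffold (−1.27), CDC25B (−1.29) and RACGAP1, a cytokinesis regulator (−1.34). By role, median log2 differences ran between −2.32 for spindle proteins and −1.55 for the passenger complex. Among 116 other mitosis genes, 91 were lower and 10 higher, with a median of −0.89. Of these, KNL1, a kinetochore scaffold, fell most (log2 −3.01, edgeR adjusted p = 6.48e-19) and ANAPC16, a subunit of the anaphase-promoting complex, rose most (log2 0.94, edgeR adjusted p = 1.87e-16). Of 40 DNA replication genes 35 were lower and 1 was higher, with a median of −0.75.

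In monolayers, most of the genes were slightly lower after 24 h of trastuzumab. The untreated monolayers have no stated match for these 24 h, so time in culture and antibody cannot be told apart. In acutely exposed monolayers 40 of the 51 were lower than in untreated monolayers, none was higher and 11 did not pass, beside 8.91% of all genes called lower and 11.3% called higher. Their median log2 difference was −0.33, against −0.02 over all genes. CDK1, the mitotic kinase, had 41.2, 50.6 and 52.3 CPM in acutely exposed monolayers, against 63.1, 67.9 and 64.8 CPM in untreated monolayers (log2 −0.44, SE 0.10, edgeR adjusted p = 0.0023). ANLN, a contractile ring protein, averaged 177 ± 6.7 CPM in acutely exposed monolayers and 237 ± 5.4 CPM in untreated monolayers (SD, n = 3 each; log2 −0.42, SE 0.062, edgeR adjusted p = 3.1e-06). The 3 anaphase genes, the 4 checkpoint genes, the 6 spindle genes and the 3 cytokinesis genes were all lower.

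The spindle pole kinase AURKA had 100.4, 109 and 105 CPM in acutely exposed monolayers, against 133, 134 and 146 CPM in untreated monolayers (log2 −0.39, SE 0.063, edgeR adjusted p = 1.43e-05). The condensin core SMC2 fell by a like amount (log2 −0.42, SE 0.063, edgeR adjusted p = 5.49e-06), and NDC80, the kinetochore's microtubule coupler, showed the largest fall that passed (log2 −0.53, SE 0.12, edgeR adjusted p = 0.00147). The checkpoint kinase BUB1 had 54.2, 54.5 and 57.1 CPM in acutely exposed monolayers, against 69.8, 70.7 and 68.7 CPM in untreated monolayers (log2 −0.34, SE 0.087, edgeR adjusted p = 0.00546). The libraries of the groups did not overlap for AURKA or BUB1. Genes that did not pass included MKI67 (log2 −0.23), PLK1 (−0.08), AURKB (−0.01), TOP2A (−0.18) and CENPF (−0.16). SPC25, with 10 to 31 counts per library in these groups, had log2 0.57 and did not pass. Of the other mitosis genes 57 were lower and 4 higher, among them SKA1 (log2 −0.68, edgeR adjusted p = 0.0377), which helps kinetochores hold microtubules, and WEE1 (log2 0.51, edgeR adjusted p = 3.23e-08), the kinase that restrains CDK1. Replication genes gave 14 lower and 0 higher. Replicates 2 and 3 of the acutely exposed and 1 and 2 of the untreated monolayers held cardiac MYH7 transcripts. Without these and the 2 untreated aggregate libraries that also held them, which leaves 1 library in each of these groups and takes the spread from the other groups, 12 of the 51 passed, all lower, and the median log2 difference of the 51 was −0.40.

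At 96 h after the same exposure the genes went in both directions. In primed monolayers 30 of the 51 were higher than in untreated monolayers, 8 were lower and 13 did not pass, beside 33.7% of all genes called higher and 31.6% called lower. Over the 51 genes the median log2 difference was 0.28, against 0.01 over all genes, and the SD over the 51 genes was 0.51. These groups belong to different sets of libraries, and primed monolayers had 96 h of culture after the exposure for which the untreated ones have no stated match. Set, time in culture and priming cannot be told apart. The kidney genes summed to 8.22 to 26.4 CPM in primed and 0.546 to 0.647 CPM in untreated monolayers, and the melanocyte genes to 1.64 to 2.87 CPM in primed and 49.3 to 109 CPM in untreated monolayers. The 4 passenger genes all rose. AURKB, its kinase, had 22.9, 23.1 and 21.8 CPM in primed monolayers, against 9.66, 8.5 and 9.15 CPM in untreated monolayers (log2 1.31, SE 0.11, edgeR adjusted p = 3.35e-12). CDCA8, the subunit also called borealin, averaged 38.1 ± 1.9 CPM in primed monolayers and 18.8 ± 0.30 CPM in untreated monolayers (SD, n = 3 each; log2 1.02, SE 0.094, edgeR adjusted p = 1.41e-11), and BIRC5, survivin, rose by log2 0.97.

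UBE2C, the ubiquitin-conjugating enzyme of the anaphase-promoting complex, had 86.7, 78.6 and 87.7 CPM in primed monolayers, against 46.5, 48 and 45.4 CPM in untreated monolayers (log2 0.85, SE 0.070, edgeR adjusted p = 9.04e-13). PLK1, a kinase of spindle assembly and mitotic exit, had 87.7, 81.4 and 80.2 CPM in primed monolayers, against 44.6, 46.6 and 58.8 CPM in untreated monolayers (log2 0.73, SE 0.10, edgeR adjusted p = 2.77e-07). For both, every primed library lay above every untreated one. MKI67 (log2 0.65), FOXM1 (0.58) and the centromeric histone CENPA (1.25) also rose. SPC25 showed the largest rise (log2 1.39, SE 0.35, edgeR adjusted p = 0.000705) on 22 to 42 counts per library in primed and 10 to 20 in untreated monolayers, and it lost its call without the MYH7 libraries.

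The 8 genes that fell were KIF14 (log2 −0.72, SE 0.090, edgeR adjusted p = 1.57e-08), CENPE (log2 −0.69), the kinesin KIF18A (−0.65), HMMR (−0.62), SMC2 (−0.57), CDC25B (−0.49), the spindle protein DLGAP5 (−0.48) and ECT2, the exchange factor that starts furrowing (−0.30). SMC2 averaged 70.6 ± 3.1 CPM in primed monolayers and 105 ± 1.8 CPM in untreated monolayers, and CDC25B 174 ± 9.8 CPM in primed and 244 ± 8.6 CPM in untreated monolayers (SD, n = 3 each; edgeR adjusted p = 1.69e-09 and 3.53e-09). The transcripts differed in GC content with the direction. The median was 47.2% in the 30 that rose, 37.8% in the 8 that fell and 41.2% in the 13 others, with CDC25B at 59.3% the exception among those that fell. Those that rose ranged from 37 to 59.6%. Over the 51 genes the Spearman correlation of GC content with the log2 difference was 0.58 (Pearson 0.48), a description over genes that share the same 6 libraries, and over all genes with a GC value it was 0.29. It was 0.40 in untreated aggregates against untreated monolayers (0.19 over all genes) and 0.39 in acutely exposed against untreated monolayers (0.25). For the change with priming in aggregates minus that in monolayers it was −0.54 (−0.30). In the other comparisons it lay between −0.17 and 0.09 over the 51 genes. With offsets fitted for GC content, 38 of the 51 passed as higher and 6 as lower, and ECT2 stood at log2 0.03. Other mitosis genes gave 56 higher and 23 lower, led by MYBL2, a partner of the MuvB complex (log2 1.98, edgeR adjusted p = 1.67e-19), and by the cohesin subunit STAG2 (log2 −0.98, edgeR adjusted p = 3.52e-17). Of the 40 replication genes 37 were higher and none lower, with a median of 0.93.

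**Figure D2:**
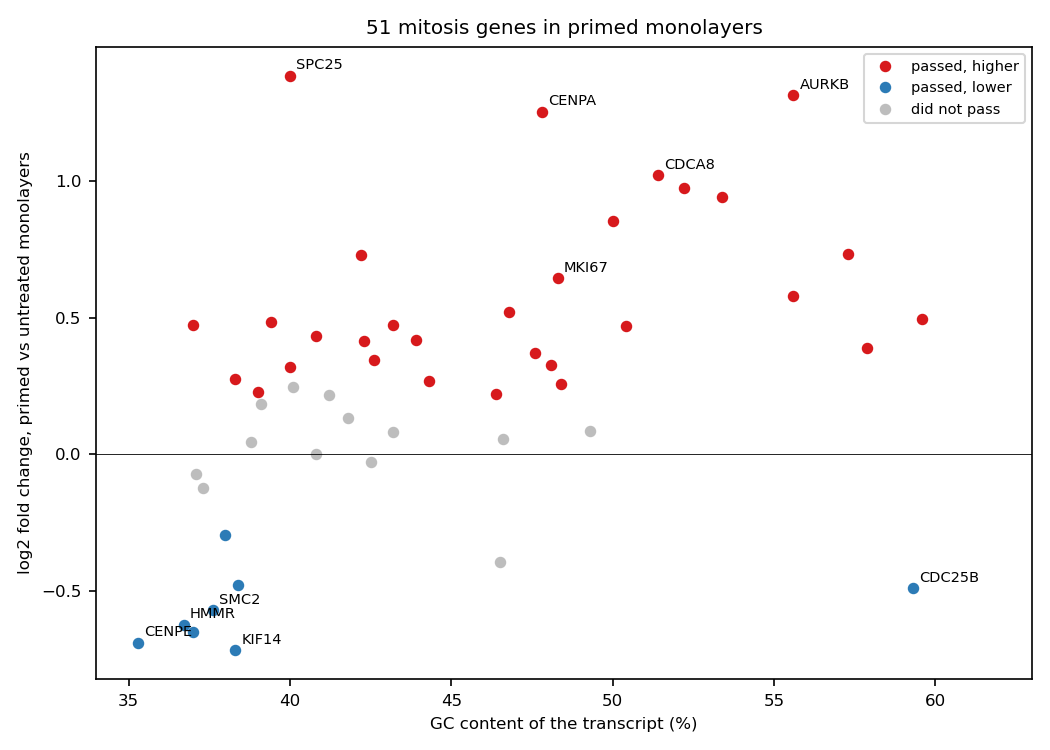
GC content of the transcript (x axis, percent) and log2 fold change of primed against untreated monolayers (y axis) for the 51 mitosis genes, red where higher, blue where lower and grey where the adjusted p missed 0.05. The blue points lie at low GC content except CDC25B, and the red points range from 37 to 59.6%. SPC25, at 40.0%, is the topmost point, and AURKB, CENPA and CDCA8 lie near the top.

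In aggregates that had not been primed, the late dose came with higher mitosis transcripts. In treated aggregates 42 of the 51 were higher than in untreated aggregates, none was lower and 9 did not pass, beside 18.8% of all genes called higher and 17.9% called lower. The median log2 difference was 0.50, against 0.00 over all genes. MKI67 had 59.8, 56.1 and 46.8 CPM in treated aggregates, against 29, 35.5 and 32.7 CPM in untreated aggregates (log2 0.74, SE 0.11, edgeR adjusted p = 1.19e-05). FOXM1 had 23.3, 20.9 and 22.7 CPM in treated aggregates, against 11.9, 14.3 and 15 CPM in untreated aggregates (log2 0.69, SE 0.085, edgeR adjusted p = 6.5e-08). All 3 treated libraries lay above all 3 untreated ones for both genes, and the same held for 39 of the 51, beside 23.6% of all genes.

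The largest rise was that of CENPF, a large kinetochore protein, with 78.1, 80.4 and 70.9 CPM in treated aggregates, against 31.4, 41.8 and 39.2 CPM in untreated aggregates (log2 1.03, SE 0.11, edgeR adjusted p = 3.08e-07). CCNB1 had 34.7, 33 and 34.9 CPM in treated aggregates, against 19.4, 24.9 and 23.4 CPM in untreated aggregates (log2 0.60, SE 0.072, edgeR adjusted p = 5.09e-08), and its untreated libraries all lay below the treated ones. NCAPH, a condensin subunit, averaged 18.6 ± 1.3 CPM in treated and 10.8 ± 1.7 CPM in untreated aggregates (SD, n = 3 each; log2 0.78, SE 0.10, edgeR adjusted p = 5.54e-08). TOP2A, the topoisomerase that untangles sister chromatids, had 238, 248 and 217 CPM in treated aggregates, against 108, 121 and 142 CPM in untreated aggregates (log2 0.92, SE 0.10, edgeR adjusted p = 8.5e-07). CDC25B averaged 174 ± 8.6 CPM in treated and 99.7 ± 8.2 CPM in untreated aggregates (log2 0.81, SE 0.059, edgeR adjusted p = 6.49e-13). The kinases PLK1 (log2 0.74), AURKA (0.49) and NEK2 (0.81), the checkpoint genes BUB1 (0.64), TTK (0.84) and BUB1B (0.57) and all 6 spindle genes also rose. The 9 that did not pass were KIF11, AURKB, NDC80, SPC24, SPC25, MAD2L1, CCNA2, CDC25C and SMC2, at log2 −0.22 to 0.58.

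Even so, the median mitosis gene in treated aggregates stood at 34.5% of its untreated monolayer level. Other mitosis genes were divided, with 30 higher and 18 lower, led by TROAP, a spindle protein (log2 0.97, edgeR adjusted p = 9.21e-09), and by HAUS1, a subunit of the augmin complex (log2 −0.53, edgeR adjusted p = 0.0276). Of the replication genes 1 was higher and 4 were lower, with a median of −0.02. Treated and untreated aggregates differed by 24 h of age and by set of libraries as well as by antibody, and these cannot be told apart. In the same libraries the 6 kidney genes summed to 6.69 to 25.2 CPM in treated and 0.562 to 1.19 CPM in untreated aggregates, where ACSM2A and UGT2B7 were at 0. The melanocyte genes summed to 2.43 to 3.59 CPM in treated aggregates, where TYR and PAX3 were at 0, and 16.6 to 22.7 CPM in untreated aggregates. The part of these transcripts in the result was not tested. Without the 6 MYH7 libraries, which leaves 1 untreated aggregate library, 25 of the 51 were called higher and none lower, and the median log2 difference of the 51 was 0.39.

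After priming alone, most of the genes did not pass, and those that did were higher. In primed aggregates 12 of the 51 were higher than in untreated aggregates, none was lower and 39 did not pass, beside 11.5% of all genes called higher and 9.66% called lower. Their median log2 difference was 0.13, against 0.00 over all genes. CENPF had 50.2, 67.6 and 55.1 CPM in primed aggregates, against 31.4, 41.8 and 39.2 CPM in untreated aggregates (log2 0.62, SE 0.11, edgeR adjusted p = 0.000419). KIF20A, a kinesin of cytokinesis, had 10.4, 14.1 and 12.6 CPM in primed aggregates, against 8.17, 8.73 and 9.16 CPM in untreated aggregates (log2 0.51, SE 0.11, edgeR adjusted p = 0.000697). The primed libraries lay above the untreated ones for both genes. ASPM showed the largest rise (log2 0.63, SE 0.13, edgeR adjusted p = 0.00153), and the other 9 were KIF14 (0.59), HMMR (0.57), CENPE (0.44), TTK (0.40), KIF4A (0.38), PLK1 (0.38), NEK2 (0.35), TOP2A (0.30) and INCENP (0.21), as log2 differences. KIF4A has a near copy, KIF4B, in the same table, and reads could be divided between them.

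MKI67 (log2 0.27), FOXM1 (0.07), CDK1 (−0.01), CCNB1 (0.20) and the other entry genes did not pass. The count of 12 rested on single libraries, since 6 passed without replicate 2 or 3 of the primed aggregates or without replicate 1 of the untreated ones, 7 passed in a fit of these 2 groups alone, and 2 passed without the MYH7 libraries, where the median of the 51 was 0.05. Among other mitosis genes 5 were higher and 16 lower, led by CIT, the citron kinase of cytokinesis (log2 0.57, edgeR adjusted p = 0.000406), and HASPIN, a histone H3 kinase (log2 −0.69, edgeR adjusted p = 0.0202). Of the replication genes 1 was higher and 13 were lower, with a median of −0.11. The melanocyte genes summed to 54.2 to 92.7 CPM in primed and 16.6 to 22.7 CPM in untreated aggregates, and their part in the result was not tested.

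With priming before the late dose, the genes stood lower than with the late dose alone. In primed and treated aggregates 44 of the 51 were lower than in treated aggregates, none was higher and 7 did not pass, beside 4.8% of all genes called lower and 3.18% called higher. Over the 51 genes the median log2 difference was −0.63, against 0.00 over all genes. These groups had the same time as aggregates, the same late dose and the same set of libraries. The 24 h of the early exposure have no stated match in the treated aggregates, so that time and priming cannot be told apart. FOXM1 had 11.3, 10.7 and 13.5 CPM in primed and treated aggregates, against 23.3, 20.9 and 22.7 CPM in treated aggregates (log2 −0.91, SE 0.083, edgeR adjusted p = 8.32e-09). MKI67 had 28.9, 31.4 and 32.2 CPM in primed and treated aggregates, against 59.8, 56.1 and 46.8 CPM in treated aggregates (log2 −0.81, SE 0.10, edgeR adjusted p = 2.48e-05). No library of the primed and treated group reached the lowest treated library for either gene, and for 47 of the 51 the groups were separated in this way, beside 14.8% of all genes.

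CDC20, the activator of the anaphase-promoting complex, had 10.5, 9.66 and 9.31 CPM in primed and treated aggregates, against 15.4, 17.4 and 16.5 CPM in treated aggregates (log2 −0.74, SE 0.080, edgeR adjusted p = 1.81e-07). BIRC5 showed the largest fall, at 6.43 ± 0.99 CPM in primed and treated and 12.7 ± 1.1 CPM in treated aggregates (SD, n = 3 each; log2 −0.97, SE 0.12, edgeR adjusted p = 1.98e-06). PLK1 had 12.7, 10.3 and 12.6 CPM in primed and treated aggregates, against 20.7, 24 and 19.5 CPM in treated aggregates (log2 −0.85, SE 0.12, edgeR adjusted p = 2.06e-05). Entry genes, kinases, passenger subunits and kinesins all took part. ANLN fell by 0.57 on the log2 scale (SE 0.066, edgeR adjusted p = 3.98e-07). CDK1 had 11.5, 14.2 and 15.5 CPM in primed and treated aggregates, against 21.2, 23 and 19.5 CPM in treated aggregates (log2 −0.62, SE 0.12, edgeR adjusted p = 0.00112), and CCNB1 differed by log2 −0.51. Every gene of the anaphase, kinase, passenger, checkpoint, spindle and cytokinesis groups was called lower. Among them CDCA8 (log2 −0.36, edgeR adjusted p = 0.0445) lost its call under limma voom, without the MYH7 libraries and without any 1 of the 6 libraries compared. AURKB lost its call without replicate 2 of the primed and treated aggregates, and MAD2L1 without that library or without replicate 1 of the treated aggregates.

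The 7 that did not pass were KIF18A (log2 −0.42), NDC80 (−0.24), SPC24 (−0.53), SPC25 (−0.92), CDC25C (−0.80), CDC25B (−0.04) and SMC2 (−0.02). CDC25B had 164, 172 and 174 CPM in primed and treated aggregates, against 166, 174 and 183 CPM in treated aggregates, and these libraries overlapped. Of the other mitosis genes 38 were lower and 4 higher, with a median of −0.10, led by the kinesin KIF18B (log2 −1.18, edgeR adjusted p = 1.01e-06) and by the cohesin subunit SMC3 (log2 0.28, edgeR adjusted p = 0.0101). Replication genes gave 13 lower and 0 higher, with a median of −0.17. Leaving out any 1 library of the groups compared gave 41 to 44 of the 51 lower.

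Further members of the spindle, kinesin, kinetochore and condensin groups were also lower in primed and treated aggregates. PTTG1, securin, which holds separase in check, averaged 8.18 ± 0.46 CPM in primed and treated aggregates and 13.5 ± 0.93 CPM in treated aggregates (SD, n = 3 each; log2 −0.72, SE 0.10, edgeR adjusted p = 4.16e-06). TPX2, which activates AURKA on the spindle, averaged 17.1 ± 1.5 CPM in primed and treated and 26.6 ± 0.48 CPM in treated aggregates (log2 −0.63, SE 0.091, edgeR adjusted p = 1.59e-05). NUF2, the partner of NDC80, averaged 4.67 ± 0.30 CPM in primed and treated and 8.15 ± 0.72 CPM in treated aggregates (log2 −0.81, SE 0.11, edgeR adjusted p = 1.06e-05). These 3 stood lower in the primed and treated group by more than their SDs. Log2 differences were −0.61 for the microtubule depolymerase KIF2C, −0.47 for KIF11, which pushes spindle poles apart, −0.80 for KIF15, which works beside KIF11, −0.66 for the midzone motor KIF23 and −0.64 for the chromokinesin KIF4A. They were −0.75 for the condensin subunit NCAPG, −0.37 for SMC4, −0.54 for TOP2A, −0.68 for the microtubule bundler NUSAP1, −0.53 for PRC1, which crosslinks midzone microtubules, and −0.29 for RACGAP1. All of these passed.

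**Figure D3:**
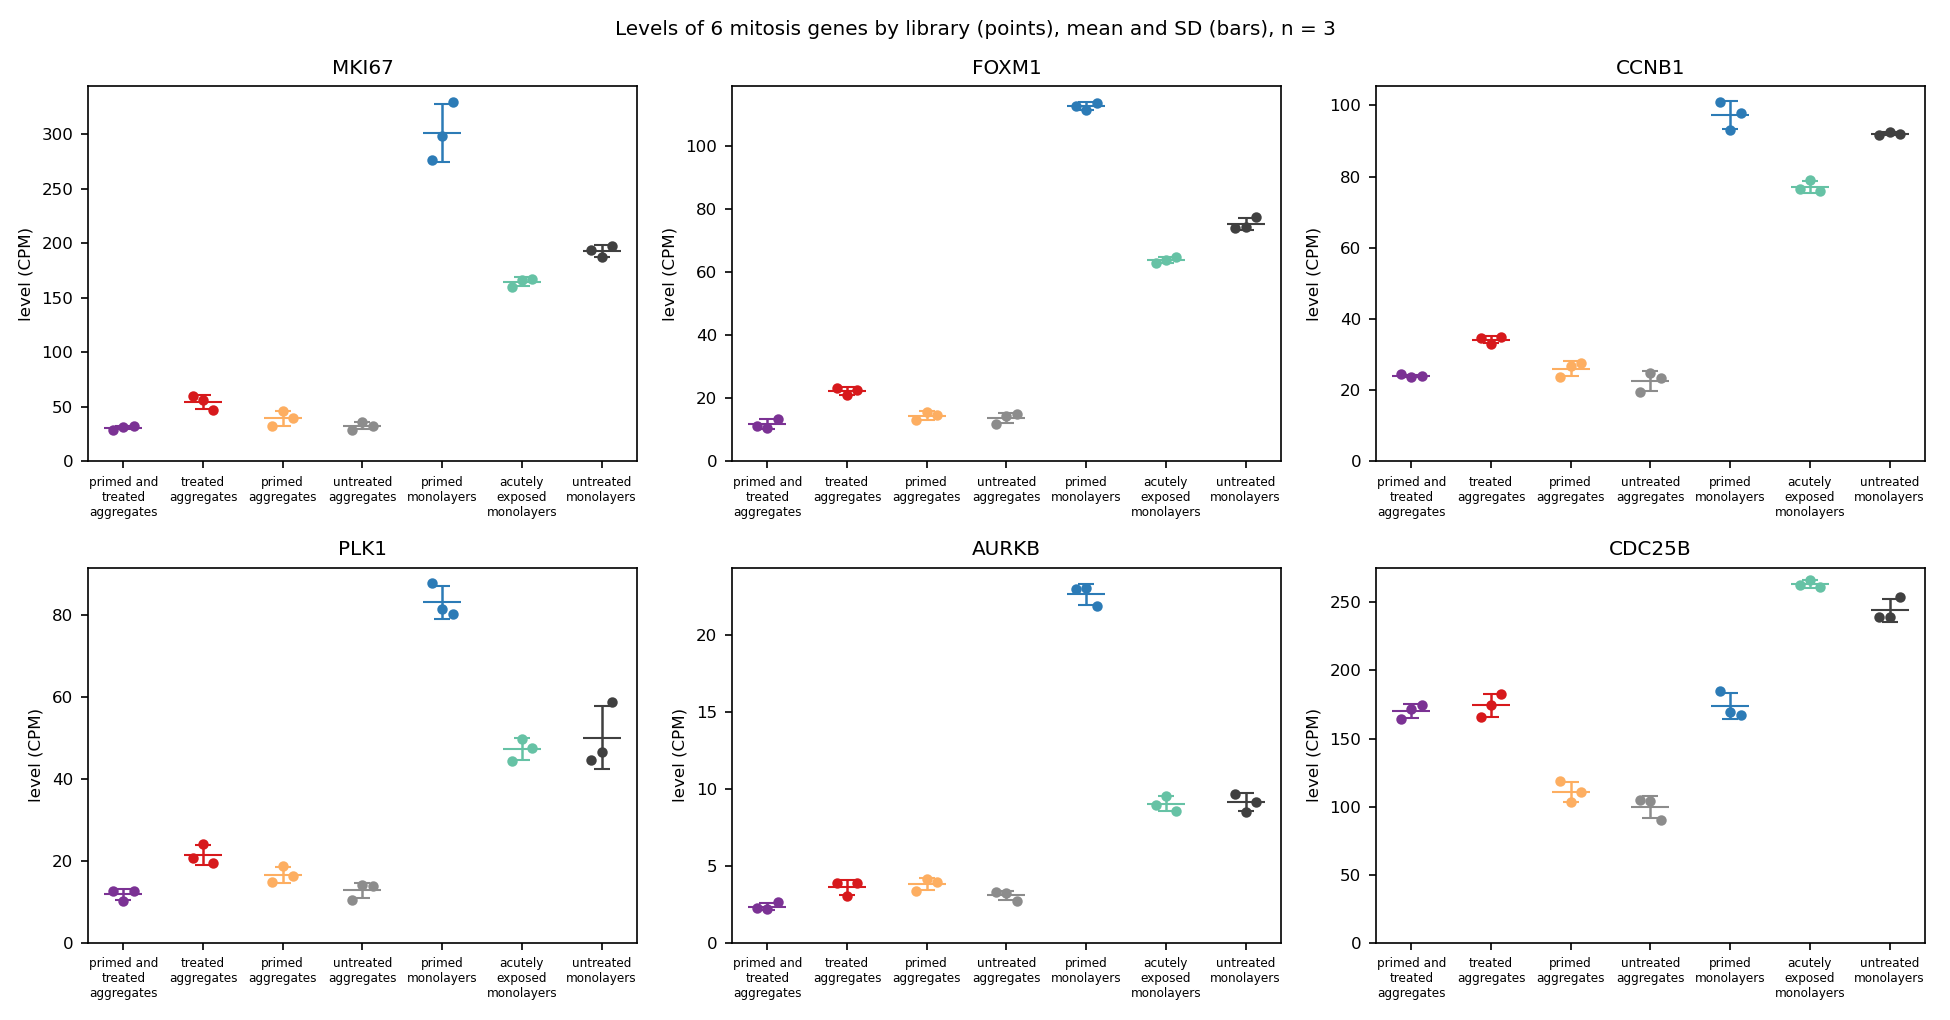
Levels of 6 mitosis genes (y axis, CPM from 0) in the 7 groups (x axis), with a point for each library and bars for the mean and SD (n = 3). Treated aggregates lie above the other aggregates for MKI67, FOXM1 and CCNB1, AURKB is highest in primed monolayers, and CDC25B has close means in both aggregate groups given the late dose.

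Against primed aggregates, the primed and treated ones were lower in 25 of the 51 genes, higher in 1 and not called in 25, beside 14.8% of all genes called lower and 14.9% called higher. The median log2 difference was −0.28, against 0.00 over all genes. AURKB had 2.24, 2.19 and 2.61 CPM in primed and treated aggregates, against 3.37, 4.13 and 3.91 CPM in primed aggregates (log2 −0.69, SE 0.15, edgeR adjusted p = 0.000689). KIF20A had 8.62, 8.95 and 9.53 CPM in primed and treated aggregates, against 10.4, 14.1 and 12.6 CPM in primed aggregates (log2 −0.45, SE 0.10, edgeR adjusted p = 0.000946). The primed and treated libraries were the lower ones throughout for both. KIF14 averaged 4.29 ± 0.70 CPM in primed and treated and 6.51 ± 1.4 CPM in primed aggregates (SD, n = 3 each; log2 −0.61, SE 0.13, edgeR adjusted p = 0.000544). CDC25B was the exception, at 170.1 ± 5.4 CPM in primed and treated and 111 ± 7.5 CPM in primed aggregates (log2 0.62, SE 0.058, edgeR adjusted p = 7.06e-10). All 6 spindle genes were lower, and none of the 4 checkpoint genes passed.

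Single libraries moved this count, with 14 lower without replicate 1 of the primed and treated aggregates, 12 without replicate 2 of the primed aggregates and 14 without replicate 3 of them. Age and set of libraries differ between these groups and cannot be told apart from the late dose, and the kidney genes summed to 6.87 to 39.7 CPM in primed and treated and 0.525 to 0.992 CPM in primed aggregates. Other mitosis genes gave 19 lower and 5 higher, led by KIF18B (log2 −0.83, edgeR adjusted p = 7.66e-05) and by ZWILCH, a kinetochore protein (log2 0.37, edgeR adjusted p = 0.00319). Replication genes gave 6 lower and 1 higher.

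Against untreated aggregates, 9 of the 51 genes were lower in primed and treated aggregates, 3 were higher and 39 did not pass, beside 17.9% of all genes called lower and 17.6% called higher, so that the 23.5% of these genes called lay below the 35.5% of all genes called. Their median log2 difference was −0.11. MKI67 had 28.9, 31.4 and 32.2 CPM in primed and treated aggregates, against 29, 35.5 and 32.7 CPM in untreated aggregates, and these libraries overlapped (log2 −0.07, SE 0.11, edgeR adjusted p = 0.648). CDC20 had 10.5, 9.66 and 9.31 CPM in primed and treated aggregates, against 13.8, 12.9 and 13.1 CPM in untreated aggregates (log2 −0.43, SE 0.085, edgeR adjusted p = 0.000141). BIRC5 (log2 −0.62, SE 0.13) and SPC24 (−0.75, SE 0.20) were also lower. CDC25B (log2 0.77), TOP2A (0.39) and CENPF (0.32) were higher. The count of lower genes was 14 without replicate 1 of the untreated aggregates, 4 without replicate 3 of them and 5 in a fit of these 2 groups alone, and the count of higher genes was 1 without the MYH7 libraries. Other mitosis genes gave 31 lower and 9 higher, with the largest fall in SGO1, the protector of centromeric cohesion (log2 −0.79, edgeR adjusted p = 7.12e-05), and replication genes gave 17 lower and 2 higher. These groups also differ in age and set of libraries.

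**Figure D4:**
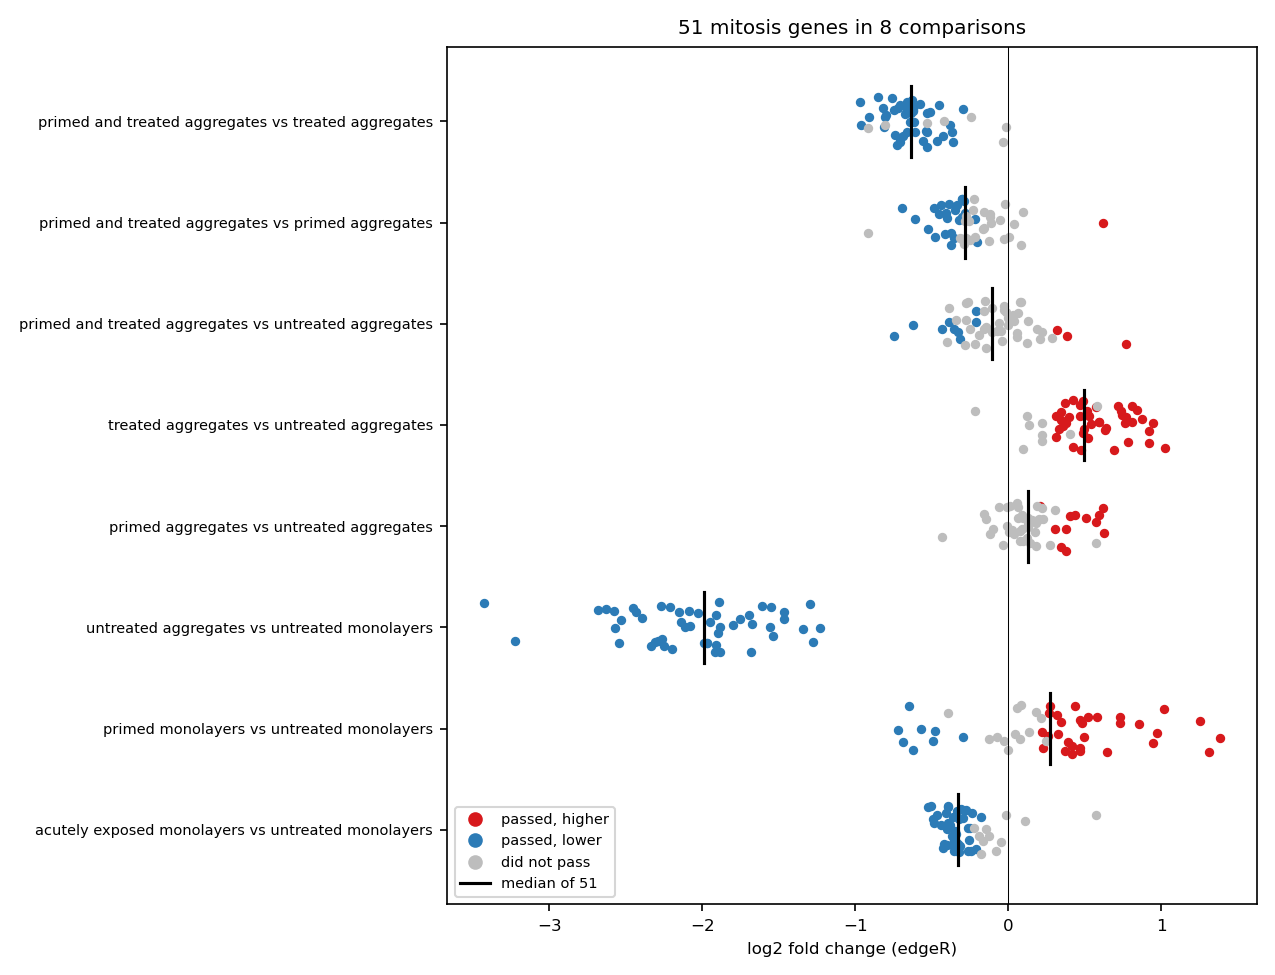
Log2 fold changes of the 51 mitosis genes (x axis, points) in the 8 comparisons (rows), with those that passed coloured by direction, the rest grey and a black line at the median. The genes lie below 0 in all 51 cases for untreated aggregates against untreated monolayers, and they lie mostly above 0 for treated against untreated aggregates.

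Whether the change with the late dose differed with priming was tested as 1 contrast. The change with the late dose in primed aggregates minus that in unprimed ones is the same quantity as primed and treated against treated aggregates minus primed against untreated aggregates. In that second form each pair has the same time as aggregates and comes from 1 set of libraries. The pairs themselves are unlike in late dose, age and set of libraries, and the parts of these in the contrast cannot be told apart. The difference was negative in all 51 genes and called in 43, none of them positive, beside 7.42% of all genes called negative and 5.05% called positive. Its median was −0.77 on the log2 scale, against 0.00 over all genes. Replicates 1 and 2 of the untreated aggregates held MYH7 transcripts (29.9 and 20.6 CPM), and primed aggregates held at most 0.059 CPM. Without the MYH7 libraries, which leaves 1 untreated aggregate library, the median difference of the 51 was −0.64. KIF14 had 3.99, 3.78 and 5.08 CPM in primed and treated aggregates, 7.83, 8.39 and 9.01 CPM in treated aggregates, 5.09, 6.67 and 7.78 CPM in primed aggregates, against 3.88, 4.8 and 4.34 CPM in untreated aggregates, a difference of log2 −1.55 (SE 0.19, edgeR adjusted p = 3.14e-07). KIF20A had 8.62, 8.95 and 9.53 CPM in primed and treated aggregates, 15.8, 16.2 and 12.5 CPM in treated aggregates, 10.4, 14.1 and 12.6 CPM in primed aggregates, against 8.17, 8.73 and 9.16 CPM in untreated aggregates, a difference of −1.22 (SE 0.15, edgeR adjusted p = 3.19e-07). Both genes had their highest mean in the treated aggregates, and their primed and treated libraries overlapped with the untreated ones.

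Differences of similar size were found for ASPM (log2 −1.34), CENPF (−1.33), HMMR (−1.23), PLK1 (−1.23), CENPE (−1.12) and MKI67 (−1.08). All 8 kinesins passed, and 3 of the 7 kinetochore genes did, with medians of log2 −0.92 for the kinesins and −0.81 for the kinetochore genes. Of the kinesins KIF18A (−0.60, edgeR adjusted p = 0.0457) lost its call under DESeq2, under limma voom, without the MYH7 libraries and in most fits that left out 1 library. The 8 that did not pass were NDC80 (−0.43), SPC24 (−0.10), SPC25 (−1.49), CENPA (−0.76), CDC25B (−0.19), CDC25C (−0.69), MAD2L1 (−0.29) and SMC2 (−0.06). Across the aggregates, treated ones had the highest mean in 48 of the 51 genes, which was not counted over all genes. In 30 of the 51, all 3 treated libraries lay above all 9 other aggregate libraries, as they did in 4.95% of all genes tested. Other mitosis genes gave 27 negative and 5 positive differences, with a median of −0.09, led by KIF18B (log2 −1.53, edgeR adjusted p = 3.49e-06) and by HAUS6, an augmin subunit (log2 0.42, edgeR adjusted p = 0.00683). Replication genes gave 2 negative and 2 positive, with a median of −0.05.

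**Figure D5:**
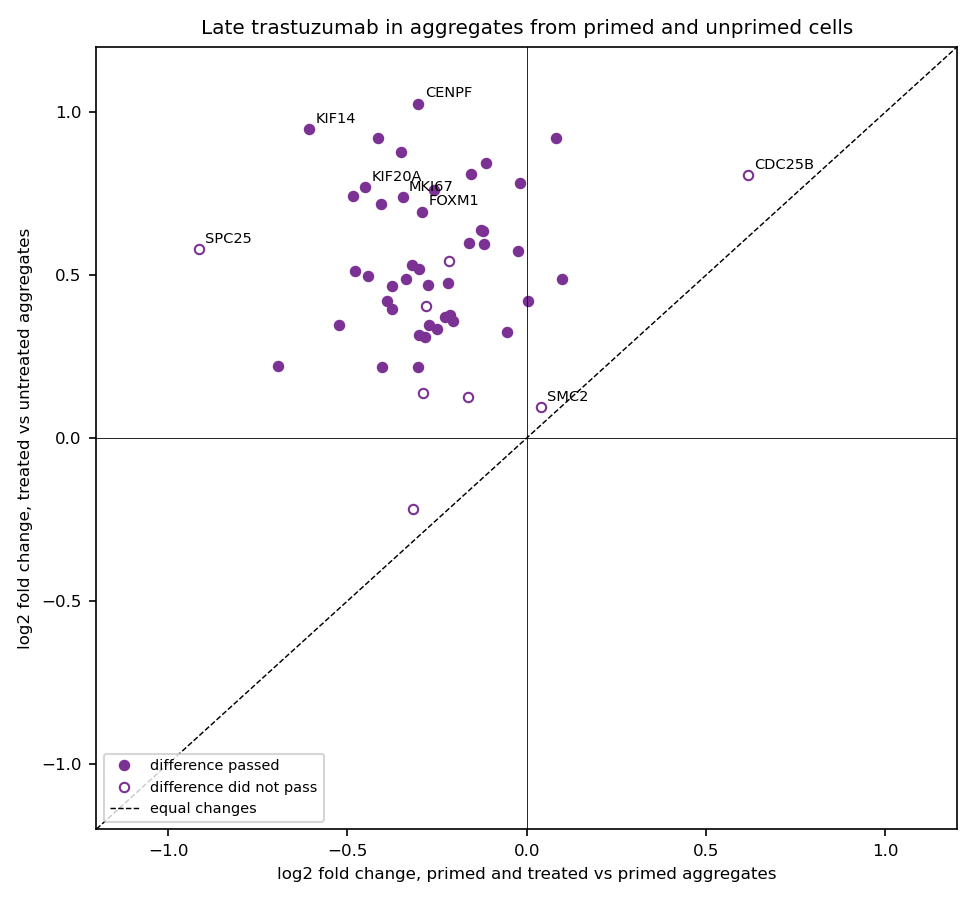
Log2 fold change with the late dose in primed aggregates (x axis, primed and treated against primed) and in unprimed aggregates (y axis, treated against untreated) for the 51 mitosis genes, filled where the difference between the changes passed. All points lie above the dashed line of equal changes, most of them left of 0 and above 0, and CDC25B is positive on both axes.

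The change with priming was likewise compared between aggregates and monolayers. The change with priming in aggregates minus that in monolayers was positive in 10 of the 51 genes and negative in 20, beside 27.6% of all genes called positive and 29.4% called negative. KIF14 (log2 1.31, SE 0.16, edgeR adjusted p = 2.64e-08) and CDC25B (log2 0.64, SE 0.082, adjusted p = 4.02e-08 in edgeR) had the smallest p among the positive differences. KIF14 averaged 6.51 ± 1.4 CPM in primed aggregates, 4.34 ± 0.46 CPM in untreated aggregates, 28.5 ± 1.9 CPM in primed monolayers and 46.8 ± 0.67 CPM in untreated monolayers (SD, n = 3 each). UBE2C (log2 −0.79, SE 0.12, edgeR adjusted p = 5.3e-07) and BIRC5 (log2 −1.07, SE 0.16, adjusted p = 8.87e-07 in edgeR) had the smallest p among the negative ones. All 4 passenger genes were negative. Primed monolayers belong to another set of libraries than the other 3 groups, and their 96 h after exposure have no stated match in untreated monolayers, whereas both aggregate groups had 96 h. Set, time and priming cannot be told apart here, and the 58.8% of these genes called was close to the 57% of all genes called. Other mitosis genes gave 18 positive and 46 negative differences, led by STAG2 (log2 1.27, edgeR adjusted p = 9.23e-16) and MYBL2 (log2 −2.60, edgeR adjusted p = 3.96e-16), and replication genes gave 0 positive and 33 negative.

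The medians of genes with and without TTTGAA in the promoter are given with no test. In treated against untreated aggregates the 25 genes with TTTGAA had a median log2 difference of 0.50 and the 19 without it 0.53. In primed and treated against treated aggregates the medians were −0.66 with TTTGAA and −0.62 without it, and in untreated aggregates against untreated monolayers they were −2.08 with TTTGAA and −1.91 without it. In primed and treated against untreated aggregates they were −0.11 with TTTGAA and −0.01 without it, and in the difference in priming between aggregates and monolayers they had opposite signs, −0.22 with TTTGAA and 0.05 without it. Per kilobase of transcript, TOP2A had the highest level in untreated monolayers, at 104 CPM per kb, and SPC25 the lowest, at 0.535 CPM per kb. In aggregates CDC25B had the highest level per kilobase, at 47.3 CPM per kb in primed and treated, 48.5 in treated, 30.8 in primed and 27.7 in untreated aggregates. TOP2A was next, at 28.1 CPM per kb in primed and treated, 40.7 in treated, 26.5 in primed and 21.5 in untreated aggregates.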

How the data were processed

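Per the labels' protocols, total RNA of the 21 AU565 samples was isolated in TRIzol and made into TruSeq libraries. The deposited values are counts per gene, made with featureCounts on hg38 per the submitters' processing notes (limma is also named, without versions). Strand settings are not given in the sources used here. Columns were matched to samples by title, and the columns of the primed aggregates, which carry a word their titles lack, by elimination. Of the 16553 genes, 174 have no symbol.

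The counts were tested in edgeR 4.0.16 (R 4.3.3) with TMM scaling, filterByExpr by group (584 genes removed, 0.0116% of counts), 1 mean for each of the 7 groups in a single robust quasi-likelihood fit (residual degrees of freedom 14), two-sided tests and Benjamini-Hochberg adjustment over the 15969 genes tested, with a threshold of 0.05. The biological coefficient of variation was 5.98%. Counts of replicate pairs within each group had a chi-squared per degree of freedom of 2.4 to 10.7, so no library was a copy of another in its group. CPM are edgeR's counts scaled to library size with TMM factors. Contrasts were 8 pairs of groups and 2 differences between responses. GC content and length came from GENCODE v29 transcripts for 95.9% of the genes and all 51 mitosis genes. The edgeR test was tried on simulated counts only for acutely exposed against untreated monolayers, with the same spread for every gene. The other steps were not tried in this way.

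The 51 genes, the lists of other mitosis genes (116) and replication genes (40) and the tissue markers were chosen with earlier results of these data known. Values in every library are given for 13 fixed genes, and the rule for naming others takes, per comparison, the 3 called genes with the smallest p in each direction, the largest change and the genes that went against most (2 per direction for differences between responses). From the other mitosis genes it takes the largest called change in each direction. Genes that a comparison names outside what the rule takes there, among them CCNB2, PTTG1, TPX2 and, in some comparisons, HMMR, ASPM and CENPE, were chosen after their values were seen. Alternatives were DESeq2 1.42.0, limma voom 3.58.1, RLE size factors, leaving low counts unfiltered, fitting the compared groups alone, a replicate block and leaving out each replicate. Added after the data were seen were GC offsets and leaving out the 6 libraries with MYH7 transcripts. A gene that the rule takes from the other mitosis genes is not reported here.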

Additional observations from a re-analysis of the deposited data

Results flagged for a closer look

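The 2 differences between responses were flagged because the change under 1 contrast differed between 2 backgrounds in a test of the difference itself. The late dose went with different changes in primed and in unprimed aggregates for 43 of the 51 mitosis genes, all of them with a lower change in primed aggregates, beside 7.42% of all genes tested with a lower change and 5.05% with a higher one. KIF14 differed by log2 −1.55 (SE 0.19, edgeR adjusted p = 3.14e-07), with a change of −0.61 in primed and 0.95 in unprimed aggregates. KIF20A differed by −1.22, with −0.45 in primed and 0.77 in unprimed aggregates. Late dose, age and set of libraries cannot be told apart in this difference.

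Priming went with different changes in aggregates and in monolayers for 30 of the 51 genes, 10 with a higher and 20 with a lower change in aggregates. Of all genes tested 27.6% had a higher and 29.4% a lower change, or 57% in all, so that the 58.8% of the mitosis genes was close to the share of all genes. KIF14 differed by log2 1.31, with 0.59 in aggregates and −0.72 in monolayers, and CDC25B by 0.64, with 0.15 in aggregates and −0.49 in monolayers. UBE2C differed by −0.79, with 0.07 in aggregates and 0.85 in monolayers, and BIRC5 by −1.07, with −0.10 in aggregates and 0.97 in monolayers.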

How the results depend on the processing

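The counts of mitosis genes called stayed within 1.5 times those reported under DESeq2, limma voom, RLE size factors and with low counts kept. Fitting the compared groups alone called 5 lower genes in place of 9 for primed and treated against untreated aggregates and 7 higher in place of 12 for primed against untreated aggregates, and the cause was not tested. Leaving out the 6 MYH7 libraries, which leaves 1 library in each of 3 groups, gave 1 higher in place of 3 for primed and treated against untreated aggregates, 25 higher in place of 42 for treated against untreated aggregates, 2 higher in place of 12 for primed against untreated aggregates and 12 lower in place of 40 for acutely exposed against untreated monolayers. It has fewer samples by construction, and the spread of a lone library is then assumed from the other groups. The median log2 difference of the 51 genes in acutely exposed against untreated monolayers was −0.40 there and −0.33 with all libraries. GC offsets gave 6 positive in place of 10 for the difference in priming. They reversed ECT2 to log2 0.030, ASPM to 0.29 and SMC4 to 0.23 in primed against untreated monolayers, and INCENP to 0.049 and SMC4 to −0.27 in the difference in priming.

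Leaving out each replicate gave 41 to 44 lower genes for primed and treated against treated aggregates, 12 to 27 lower for primed and treated against primed aggregates, 4 to 14 lower and 2 to 4 higher for primed and treated against untreated aggregates, 36 to 42 higher for treated against untreated aggregates, 6 to 15 higher and 0 to 1 lower for primed against untreated aggregates, the 1 being MAD2L1 without replicate 2 of the primed aggregates, 28 to 31 higher and 7 to 9 lower for primed against untreated monolayers, 33 to 35 lower for acutely exposed against untreated monolayers, and 51 lower in each case for untreated aggregates against untreated monolayers. The difference in the late dose had 40 to 43 negative calls, and that in priming 15 to 23 negative and 8 to 12 positive.

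Replicate numbers did not pair the samples. Correlations of same-numbered libraries' deviations from their group means were −0.15 to 0.18, over 0.1 in 2 of 63 pairs. A library correlated best with its own number in 37 of 126 cases. The 2 pairs over 0.1 were of untreated aggregates with untreated monolayers, at 0.07, 0.14 and 0.18 for replicates 1, 2 and 3. In each of these groups replicates 1 and 2 held MYH7 transcripts. With the replicate block, 44 genes were lower in primed and treated against treated aggregates, 27 lower against primed aggregates, 42 higher in treated against untreated aggregates and 43 negative in the difference in the late dose, and no count moved by 1.5 times. Where edgeR called 0 of the 51 genes in 1 direction, DESeq2 and limma voom also called 0, and an unadjusted p under 0.05 was reached by 0 genes in that direction, except for 1 lower gene in primed against untreated aggregates. Depth limits SPC25, at 3 to 42 counts per library.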
